A study of Mus musculus with 32 samples.

Results

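Transcripts of 10 genes that restrain signalling through the extracellular signal-regulated kinases (ERK) were followed in cultured mouse cortical neurons: 4 dual-specificity phosphatases (Dusp1, Dusp4, Dusp5 and Dusp6), 3 Sprouty genes (Spry1, Spry2 and Spry4) and 3 Sprouty-related genes (Spred1, Spred2 and Spred3). These genes, and the lists set beside them, were chosen by name with earlier results of these data known. All 10 were found by symbol, with 1 identifier each, among the 49671 genes of the count table. Primary cortical neurons had been prepared from late-gestation forebrains of C57BL/6 mice with the WT genotype. The medium of the cultures held no oligoribonucleotide (untreated), miR-92a-1-5p, or else miR-124-5p or the control Mut.oligo, over 6 h or over 5 d, and each of the 8 groups held 4 libraries described as biological replicates. All 3 agents were synthetic single-stranded oligoribonucleotides added to the medium, and Mut.oligo, a let-7b sequence with altered bases, was the control for sequence. The cultures were not sorted, so other cells of the forebrain could be present. Which of the replicates came from separate animals or preparations is not given beyond an experiment batch, so p-values measure the spread between these libraries.

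Growth factor receptors activate Ras, which starts a chain of kinases that ends with ERK, and ERK induces genes that switch the same chain off again. Sprouty and Spred proteins act near the receptor and Ras, with Spred proteins bringing the Ras inactivator neurofibromin to the membrane. The Dusp enzymes remove the activating phosphates from the kinases themselves: Dusp6 in the cytoplasm acts mainly on ERK, Dusp5 on ERK in the nucleus, and the nuclear enzymes Dusp1 and Dusp4 also act on the stress kinases JNK and p38. In neurons this pathway carries signals of neurotrophins and of synaptic activity, and several of these genes are used as transcript readouts of ERK activity.

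Sequence is shown first for the one oligoribonucleotide whose mature sequence was listed among the reference miRNAs (RefSeq, GRCm38.p6), so that matches in the 10 transcripts can be seen. The gene of miR-92a-1-5p lies on the forward strand, with the mature bases at chr14:115044437-115044459, and the capitals mark the seed, bases 2 to 8.
mmu-miR-92a-1-5p: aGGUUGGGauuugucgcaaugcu
The complement of the seed, CCCAACC, was sought in the 3′ UTRs of the GENCODE annotation. It occurred in 1 of the 10 genes, Spred3, and in 9.984% of 21193 genes with a 3′ UTR. Spred3 held 2 matches in a 3′ UTR of 2697 bases, shown with 10 bases on either side and the match in capitals. They lay at bases 323 to 329 and at bases 1633 to 1639.
Spred3, first match: tgtctaaatgCCCAACCcagacttcag
Spred3, second match: ccacccccacCCCAACCttgcagattt
A match is a description of letters and no evidence of binding.

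Promoter windows of 300 bases around the start of 8 of the 10 genes were listed (RefSeq, GRCm38.p6), and 4 kinds of element known from growth factor and activity-induced genes were sought on both strands. The cyclic AMP response element (CRE, TGACGTCA) occurred in 1 of the 8 windows, that of Dusp1, and in 1.79% of 32851 promoters. The serum response element (SRE) occurred in the window of Dusp5 and in 1.629% of promoters. The core of the CRE (TGACG, which every full CRE contains) occurred in the windows of Dusp1, Dusp5 and Spred2 and in 20.812% of promoters. None of the 8 windows held the AP-1 site TGANTCA (7.808% of promoters) or the ETS site CCGGAAG (8.858%). The windows of Dusp1 and Dusp5 are printed because they hold the full elements, in the direction of transcription with the elements in capitals. The window of Dusp1 is chr17:26508423-26508722 on the reverse strand, and that of Dusp5 is chr19:53528895-53529194 on the forward strand.
Dusp1: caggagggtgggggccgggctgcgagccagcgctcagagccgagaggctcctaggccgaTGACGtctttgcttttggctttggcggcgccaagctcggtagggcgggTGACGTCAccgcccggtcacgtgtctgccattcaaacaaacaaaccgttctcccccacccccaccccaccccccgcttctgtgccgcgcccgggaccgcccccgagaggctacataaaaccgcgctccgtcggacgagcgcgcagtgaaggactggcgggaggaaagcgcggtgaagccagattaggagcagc
Dusp5: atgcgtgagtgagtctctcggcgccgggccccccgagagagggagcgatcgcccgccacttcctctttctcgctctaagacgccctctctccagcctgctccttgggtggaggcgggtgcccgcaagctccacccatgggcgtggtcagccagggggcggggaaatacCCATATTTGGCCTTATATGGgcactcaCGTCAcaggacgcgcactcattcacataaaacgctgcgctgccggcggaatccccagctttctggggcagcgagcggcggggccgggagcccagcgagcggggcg
In Dusp5, 2 SREs stand end to end, followed by a CRE core read on the opposite strand.

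The 32 libraries held 24514090 to 73626029 counts on exons, and single libraries held 104 to 9117 counts of each gene of the set. Levels are given in CPM, the counts divided by library size, with TMM scaling over the 32 libraries. Neuronal markers summed to 4150 to 6260 CPM, and those of astrocytes and radial glia to 544 to 2750 CPM. Markers of microglia summed to 11.7 to 37.0 CPM and those of endothelial cells to 1.08 to 3.82 CPM, with P2ry12 at 0 in 2 libraries and Cldn5 at 0 in 10. The libraries came from 7 experiment batches at 6 h, here called A to G, and 6 other batches at 5 d, called H to M. One library stood apart, replicate 1 of miR-124-5p at 5 d, with a median correlation of 0.9856 to the other libraries of its group. It had the lowest levels over all libraries of Spred2 (57.7 CPM), Spred3 (14.8 CPM) and Spry4 (10.1 CPM). Without it, 0 genes of the set were called for miR-124-5p at 5 d against untreated, against Mut.oligo and against miR-92a-1-5p, as with it.

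Per kilobase of exon, Dusp4 and Spred2 had the highest levels in untreated neurons at 6 h, at 28.9 ± 4.45 and 23.0 ± 1.06 CPM per kb (SD, n = 4), followed by Spry2 at 18.3 ± 1.85 and Spred1 at 14.5 ± 0.456. Spred3 (9.20 ± 1.26), Dusp1 (9.17 ± 1.1) and Dusp6 (8.02 ± 1.41 CPM per kb) overlapped in their ranges of mean ± SD, as did Spry1 (3.9 ± 0.614) and Spry4 (3.64 ± 0.730), and Dusp5 was the lowest at 2.15 ± 0.314 CPM per kb. At 5 d, the 3 highest were Spry2 (22.7 ± 2.35), Spred1 (21.6 ± 1.19) and Spred2 (19.6 ± 1.34 CPM per kb), whose neighbours in this order overlapped in the same way. Dusp4 was then at 9.51 ± 1.31 and Spred3 at 3.87 ± 0.496 CPM per kb.

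**Figure D1:**
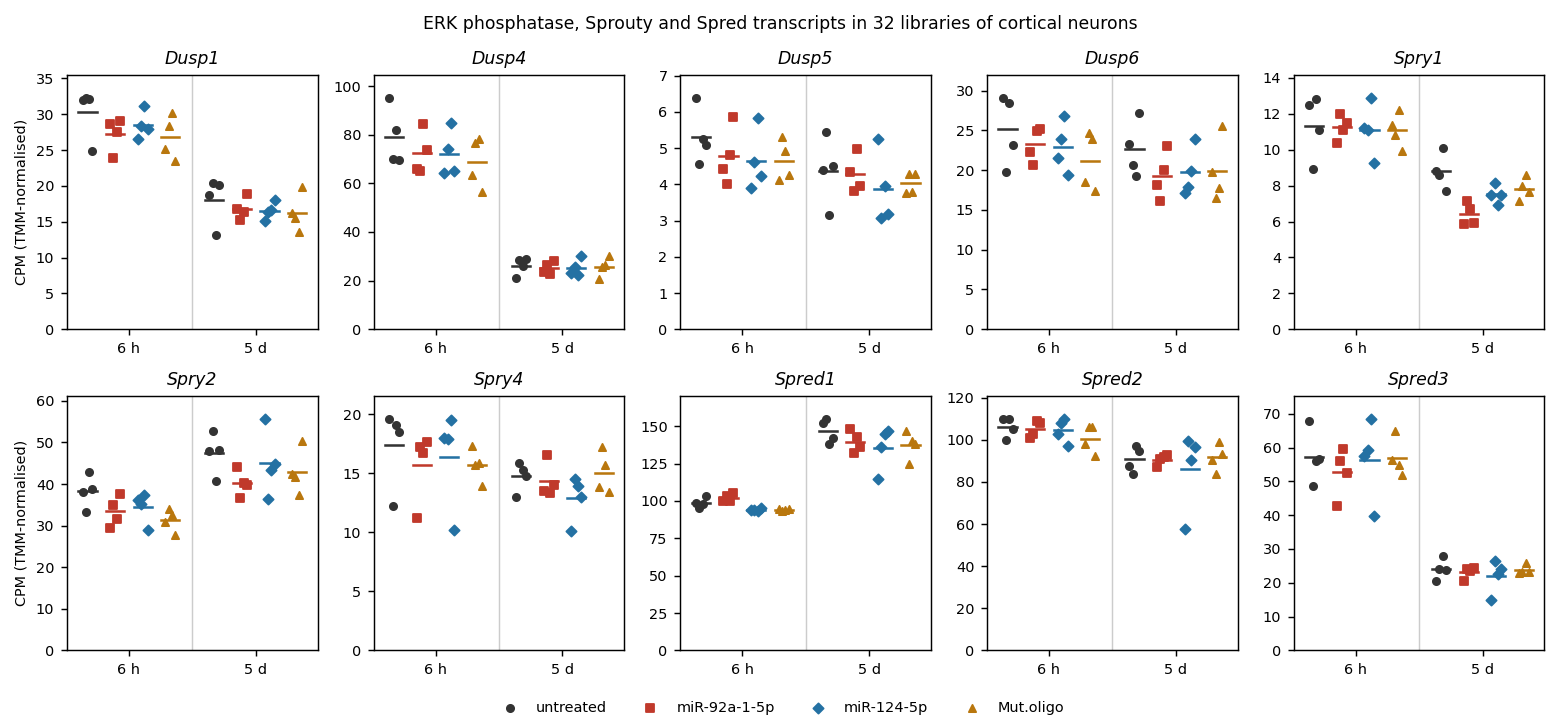
Level of each of the 10 genes (CPM after TMM scaling, linear axis from 0) in every library at 6 h and 5 d, with one point per library and a bar at the mean of the 4 libraries of a group. Dusp4 lay between 56.5 and 95.2 CPM at 6 h and between 20.8 and 30.1 CPM at 5 d, and within each time point the 4 groups overlapped for nearly all genes.

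The comparison of untreated neurons at 5 d with untreated neurons at 6 h asked how the set differs between the time points. Whether the libraries of both time points had the same age in culture is not given. A gene was called at an edgeR adjusted p below 0.05 together with a log2 fold change beyond 0.5 in either direction. Of the 10 genes, 3 were called lower at 5 d (Dusp1, Dusp4 and Spred3), where 14.3% of the 20425 genes tested were called lower, and 1 was called higher (Spred1), where 19.1% were called higher. The batches of 6 h and 5 d differ throughout, so time point and batch cannot be told apart.

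Dusp4 (ENSMUSG00000031530, GRCm38 chr8:34807297-34819894, forward strand), a phosphatase of ERK and JNK in the nucleus, measured 95.2, 81.8, 69.9 and 69.4 CPM in the untreated libraries of 6 h and 21.1, 25.9, 28.4 and 28.8 CPM in those of 5 d. It fell by 1.60 on the log2 scale (SE 0.133, adjusted p = 2.58e-11). Every 6 h library of any group, treated or not, was above every 5 d library for this gene.

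Spred3 (ENSMUSG00000037239, chr7:29158829-29170411, reverse strand), a Spred inhibitor of the Ras to ERK chain, measured 67.7, 55.9, 48.7 and 56.7 CPM at 6 h and 20.5, 28, 24.0 and 23.8 CPM at 5 d. It fell by 1.25 on the log2 scale (SE 0.145, adjusted p = 1.9e-08). The lowest library of 6 h in any group, at 39.6 CPM, was above the highest of 5 d, at 28 CPM.

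Dusp1 (ENSMUSG00000024190, chr17:26505590-26562128, reverse strand), an immediate early phosphatase of p38, JNK and ERK, measured 32, 32.1, 32.3 and 24.9 CPM at 6 h and 18.7, 13.1, 20.4 and 20.1 CPM at 5 d. The log2 fold change was -0.74 (SE 0.118, adjusted p = 4.08e-06). Over all groups the lowest library of 6 h had 23.5 CPM and the highest of 5 d 20.4 CPM, so the time points did not overlap.

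Spred1 (ENSMUSG00000027351, chr2:117121374-117182279, forward strand), which recruits neurofibromin to Ras, moved the other way. It measured 98.4, 98.1, 95.4 and 103 CPM at 6 h and 152, 138, 155 and 142 CPM at 5 d, a log2 fold change of 0.57 (SE 0.0597, adjusted p = 2.66e-09). Its 6 h libraries of all groups reached at most 105 CPM and its 5 d libraries were at 115 CPM or more.

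The other 6 genes were not called. Spry1 (log2 fold change -0.37, adjusted p = 0.00501), Spry2 (0.31, adjusted p = 0.0179) and Spred2 (-0.23, adjusted p = 0.0498) passed the adjusted p but stayed within the fold limit, and over the 15 alternatives their adjusted p ranged from 0.00145 to 0.0598, from 0.00396 to 0.068 and from 0.00811 to 0.195. Spry1 lost the threshold without untreated replicate 1 of 6 h (0.0554) or replicate 4 of 5 d (0.0598), Spry2 without replicate 3 of 5 d (0.068), and Spred2 without any 1 of the 8 libraries. The values were -0.28 for Dusp5 (adjusted p = 0.164), -0.15 for Dusp6 (adjusted p = 0.41) and -0.23 for Spry4 (adjusted p = 0.229). For Dusp6, the phosphatase most specific for ERK, the interval of the difference ran from -0.45 to 0.15. The Sprouty genes thus stood on both sides of 0, with Spry2 at 38.2 ± 3.86 CPM at 6 h and 47.4 ± 4.89 CPM at 5 d against 11.3 ± 1.78 and 8.80 ± 0.98 CPM for Spry1.

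**Figure D2:**
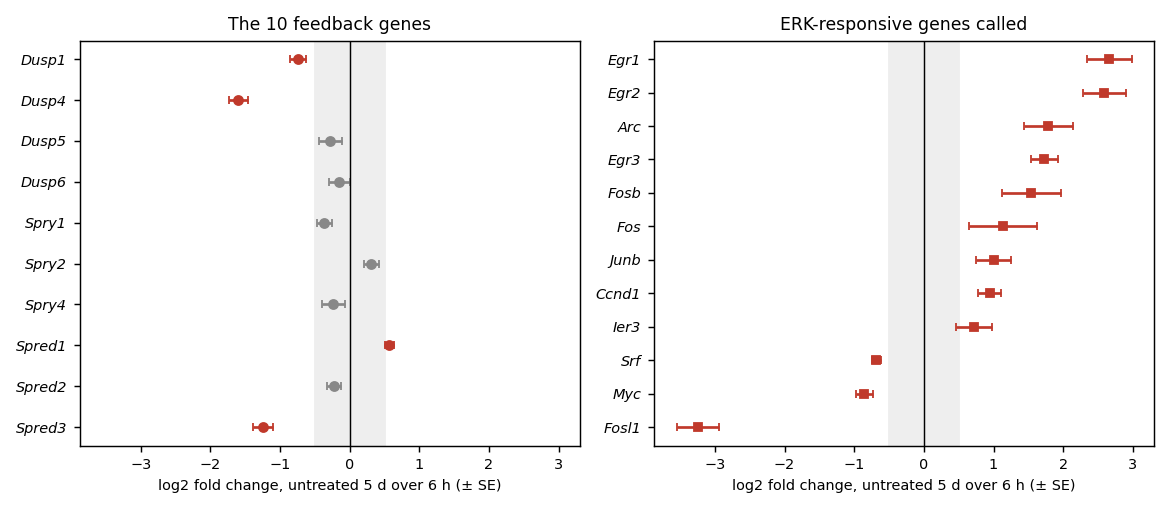
Log2 fold change of untreated neurons at 5 d over 6 h with its standard error, for the 10 genes (left) and for the 12 of 18 ERK-responsive genes called (right), with called genes in red and the fold limit shaded. Dusp4 (-1.60), Spred3 (-1.25) and Dusp1 (-0.74) lie to the left, Spred1 (0.57) to the right, and Egr1 (2.66) and Fosl1 (-3.25) mark the ends of the right panel.

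Genes induced by ERK and by synaptic activity were set beside the feedback genes. Of 18 listed, 9 were called higher and 3 lower at 5 d. The immediate early transcription factors Egr1 (log2 fold change 2.66, SE 0.32), Egr2 (2.59, SE 0.309) and Egr3 (1.73, SE 0.191), as well as Arc, a regulator of synaptic receptors (1.79, SE 0.353), rose. Fosb, Fos, Junb, Ccnd1 and Ier3 rose by 0.72 to 1.54 on the same scale. Fosl1 (-3.25, SE 0.303), Myc (-0.85, SE 0.118) and Srf (-0.68, SE 0.0639), the factor that binds the SRE, fell. Egr1 measured 11.8 ± 1.15 CPM at 6 h and 74.5 ± 34.0 CPM at 5 d (SD, n = 4), so its libraries at 5 d were widely spread.

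Of 7 other MAP kinase phosphatases, Dusp14 rose (0.72, SE 0.0933) and Dusp8, a phosphatase of JNK and p38, fell by 0.50 (SE 0.0525). Of 10 other feedback inhibitors tested, 2 rose, Lrig1 (0.94, SE 0.157) and Il17rd (0.52, SE 0.155), both membrane proteins that dampen growth factor receptors, and 0 were called lower (3 had a log2 fold change below 0). In the Ras to ERK chain, the ERK-activating kinase gene Map2k1 rose (0.63, SE 0.056) and its paralog Map2k2 fell by 0.51 (SE 0.0933). Of 19 growth factors and receptors, 8 rose, among them Fgf2 (1.61, SE 0.289), Egfr (1.30, SE 0.336), Met (0.92, SE 0.16) and the BDNF receptor Ntrk2 (0.81, SE 0.101), and 3 fell (Pdgfra, Bdnf and Egf). The median log2 fold change was -0.26 over the 10 feedback genes, 0.50 over the ERK-responsive genes and 0.04 over all genes tested.

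Markers of other cells also differed between the time points. Astrocyte and radial glia markers summed to 700 to 1220 CPM in untreated neurons at 6 h and 1890 to 2750 CPM at 5 d, with 5 of 6 called higher. Markers of dividing cells summed to 242 to 363 CPM and 118 to 125 CPM, with 6 of 6 called lower. Microglia markers summed to 13.3 to 19.1 CPM and 24.7 to 36.9 CPM, with 3 of 6 called higher. Of 6 mural cell and fibroblast markers, 2 were called higher and 1 lower. In bulk RNA, fewer cells of a type and less RNA per cell cannot be told apart, and the part of these markers in the feedback gene values was not tested.

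After 6 h of exposure, 0 of the 10 genes were called against untreated for miR-92a-1-5p, for miR-124-5p and for Mut.oligo, where 0% of 18755 genes were called in each comparison (edgeR). At an unadjusted p below 0.05 the number of genes of the set was 0, 0 and 1, beside 891, 852 and 1780 of all genes, and DESeq2 also called 0 of the set. The log2 fold changes of the set had medians of -0.12, -0.08 and -0.14, beside 0.01, 0.00 and 0.00 over all genes, and 9, 10 and 9 of the 10 values were below 0, as were 48.1%, 51.3% and 50.1% of all genes. These 3 comparisons share the untreated libraries, so their directions are not separate observations. The 95% intervals of all 10 genes in the 3 comparisons lay between -0.54 and 0.33.

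**Figure D3:**
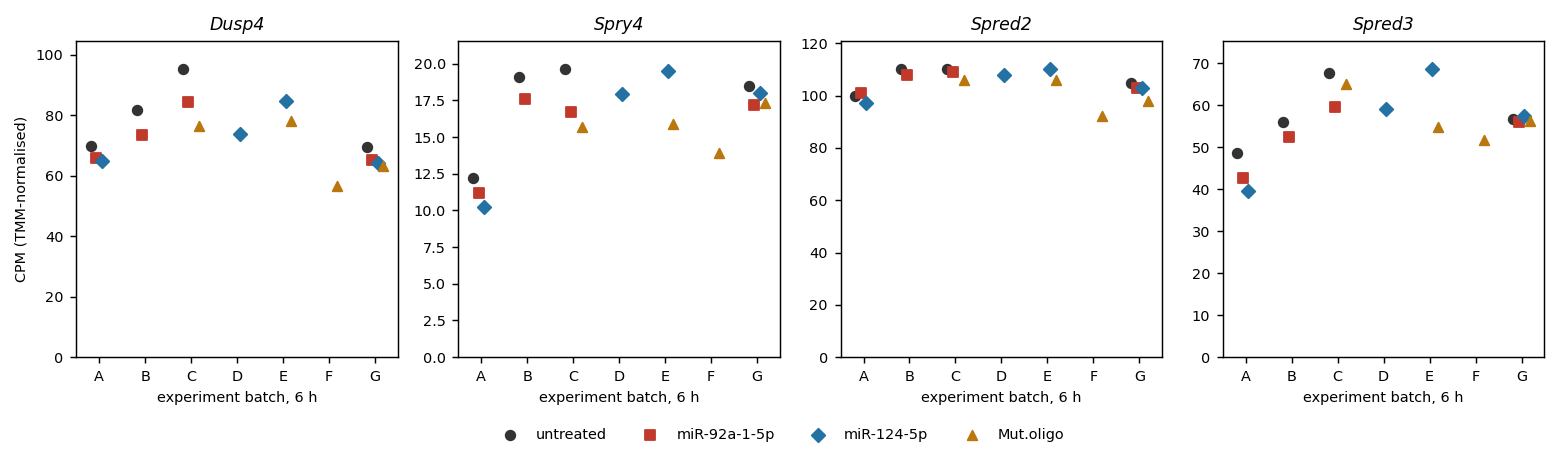
Levels (CPM after TMM scaling, linear axis from 0) of Dusp4, Spry4, Spred2 and Spred3 in the 16 libraries of 6 h, placed by experiment batch A to G, with symbol and colour giving the group. In batch A, Spry4 measured 10.2 to 12.2 CPM in 3 groups, below the lowest library of any other batch at 13.9 CPM.

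Libraries of the same batch had like levels of these genes whatever the exposure. Dusp4 measured 64.9 to 69.9 CPM in the 3 libraries of batch A, 76.6 to 95.2 CPM in the 3 of batch C and 63.4 to 69.4 CPM in the 4 of batch G. Spry4 measured 10.2 to 12.2 CPM in batch A and 17.2 to 18.5 CPM in batch G. Spred3 measured 39.6 to 48.7 CPM in batch A and 59.5 to 67.7 CPM in batch C. The residual SD of log2 CPM around the group means was 0.202 for Dusp4, 0.317 for Spry4 and 0.0752 for Spred2. With the batch also fitted it was 0.0413, 0.0879 and 0.0147. For the median of all genes, the same step went from 0.192 to 0.127, and for Spred1 from 0.0296 to 0.0325, so that Spred1 showed no such batch pattern at 6 h.

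Once the experiment batch was added to the fit, 0 of the 10 genes were called at 6 h for miR-92a-1-5p, for miR-124-5p and for Mut.oligo, where 0.208%, 0% and 0.0213% of all genes were called. The number of genes of the set at an unadjusted p below 0.05 was 4, 1 and 4, and over all 18755 genes it was 2505, 1086 and 1589. All of these had values below 0, and each was smaller in size than the fold limit.

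Spry2, which blocks Ras activation downstream of FGF receptors, was among the lower values in all 3 comparisons. It measured 38.2, 42.8, 33.3 and 38.7 CPM in the untreated libraries, 29.5, 31.7, 34.9 and 37.6 CPM with miR-92a-1-5p, 36.1, 37.3, 35.2 and 29.0 CPM with miR-124-5p, and 30.8, 32.6, 34.1 and 27.7 CPM with Mut.oligo. The groups overlapped, since untreated replicate 3 of batch A was low. Within shared batches, miR-92a-1-5p libraries were below untreated in 4 of 4, by 0.15 to 0.27 on the log2 scale. With the batch fitted, the log2 fold change was -0.19 (SE 0.0472, adjusted p = 0.0636) for miR-92a-1-5p, -0.12 (SE 0.0591, adjusted p = 0.853) for miR-124-5p and -0.26 (SE 0.0598, adjusted p = 0.164) for Mut.oligo. Over the alternatives the adjusted p ranged from 0.0636 to 1 for miR-92a-1-5p and from 0.163 to 0.857 for Mut.oligo.

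Dusp4 gave a similar picture. With miR-92a-1-5p it measured 65.8, 84.5, 65.2 and 73.6 CPM, with miR-124-5p 64.3, 84.9, 74.0 and 64.9 CPM and with Mut.oligo 63.4, 78.3, 76.6 and 56.5 CPM, overlapping the untreated libraries given above. In the shared batches it was below untreated in 4 of 4 for miR-92a-1-5p, in 2 of 2 for miR-124-5p and in 2 of 2 for Mut.oligo. With the batch fitted, the log2 fold changes were -0.12 (SE 0.0349, adjusted p = 0.118), -0.12 (SE 0.0436, adjusted p = 0.816) and -0.22 (SE 0.0436, adjusted p = 0.109), and without it -0.13, -0.12 and -0.18 with adjusted p values from 0.688 to 1. Over the alternatives the adjusted p was at least 0.118, 0.816 and 0.0601.

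Dusp1, Dusp6 and Spry4 reached an unadjusted p below 0.05 with the batch fitted in one comparison or the other. Dusp1 stood at -0.15 for miR-92a-1-5p (SE 0.0489, adjusted p = 0.171), lower than the untreated library in 4 of 4 batches. Dusp6 stood at -0.24 for Mut.oligo (SE 0.0745, adjusted p = 0.362). Spry4, which inhibits Ras to ERK signalling downstream of FGF and VEGF receptors, stood at -0.14 for miR-92a-1-5p (SE 0.0613, adjusted p = 0.33) and at -0.25 for Mut.oligo (SE 0.0775, adjusted p = 0.365). These were the smallest adjusted p values over the alternatives of the 4 comparisons, and the largest were 0.912 to 1.

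Counted over the set, the genes below the untreated library of their batch in every shared batch were 5 for miR-92a-1-5p (Dusp1, Dusp4, Spry2, Spry4 and Spred3, over 4 batches), 7 for miR-124-5p and 8 for Mut.oligo (over 2 batches each). Over all genes the shares were 12.1%, 29.4% and 34.6%. The same untreated libraries of batch G enter all 3 counts, and those of batches A and C enter 2 each.

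Spred3, the gene with the miR-92a-1-5p seed matches shown above, measured 42.7, 59.5, 56.0 and 52.4 CPM with miR-92a-1-5p and 67.7, 55.9, 48.7 and 56.7 CPM in untreated neurons. The groups overlapped, and the log2 fold change was -0.12 (SE 0.143, adjusted p = 0.999), or -0.12 (SE 0.0622, adjusted p = 0.434) with the batch. Against Mut.oligo with the batch fitted it was 0.01, with an interval from -0.15 to 0.17.

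Spred1 had the smallest spread of the set at 6 h. It measured 94.1, 93.1, 94.1 and 95.2 CPM with miR-124-5p and 94.4, 94.2, 93.5 and 94.6 CPM with Mut.oligo, and all 8 values were below the 4 untreated values of 95.4 to 103 CPM. With miR-92a-1-5p the values were 100, 99.9, 103 and 105 CPM. In the comparisons with untreated, the number of genes of the set with all 4 libraries below all 4 untreated libraries was 0 for miR-92a-1-5p, 1 for miR-124-5p and 1 for Mut.oligo, where 1.81%, 1.87% and 2.8% of all genes had this order. The differences were small, at -0.06 (SE 0.0341, adjusted p = 1) for miR-124-5p and -0.04 (SE 0.0341, adjusted p = 0.724) for Mut.oligo. The difference of miR-92a-1-5p from miR-124-5p was 0.11 (SE 0.0339, unadjusted p = 0.00573, adjusted p = 1).

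**Figure D4:**
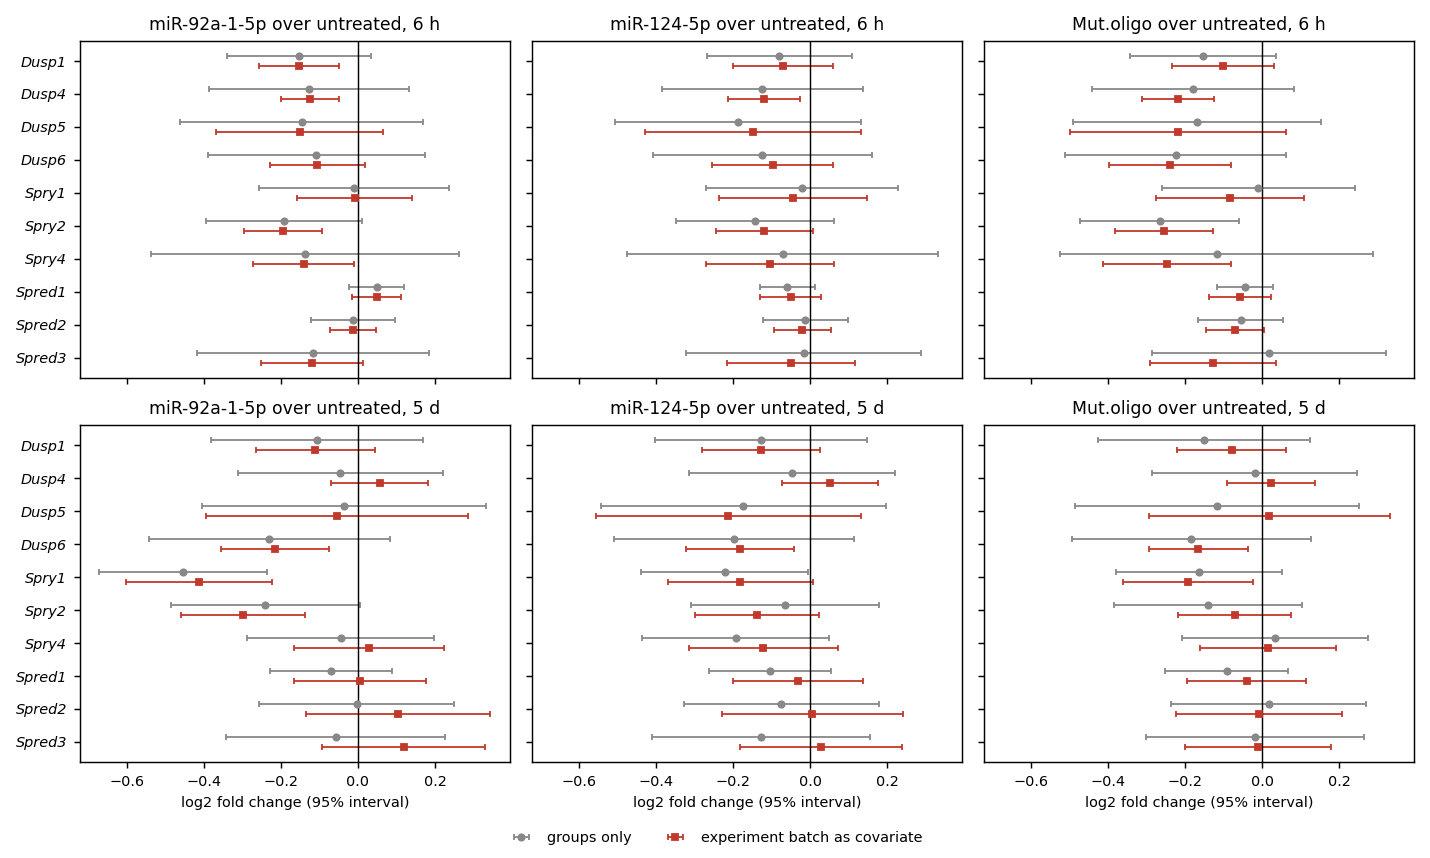
Log2 fold change over untreated, with 95% interval, of the 10 genes for each oligoribonucleotide at 6 h (top) and 5 d (bottom), from the fit of the groups only (grey circles) and from the fit with the experiment batch (red squares). Most intervals of the grey circles cross 0, and Spry1 with miR-92a-1-5p at 5 d is the value farthest from 0, at -0.45 and -0.41.

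After 5 d of exposure, 0 of the 10 genes were called against untreated for miR-92a-1-5p, for miR-124-5p and for Mut.oligo (edgeR), where 0.00517%, 0% and 0% of 19333 genes were called. At an unadjusted p below 0.05 the number of genes of the set was 1, 1 and 0, beside 702, 503 and 539 of all genes, and DESeq2 called 0 of the set. Medians over the set were -0.06, -0.13 and -0.11 and the numbers of values below 0 were 10, 10 and 8, from comparisons that share the untreated libraries. Over all genes, 50.5%, 49% and 48.9% of values were below 0. Once the batch was added to the fit, 0 of the 10 were called, where 0.352%, 0.0259% and 0.0466% of all genes were called, and the numbers of values below 0 were 5, 7 and 7. At an unadjusted p below 0.05 the fit with the batch had 3, 1 and 2 genes of the set, and 2082, 927 and 812 of all 19333 genes.

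Spry1 (ENSMUSG00000037211, GRCm38 chr3:37639947-37644598, forward strand), an inhibitor of FGF and GDNF receptor signalling, came closest to a call. It measured 8.83, 10.1, 8.61 and 7.69 CPM in untreated neurons at 5 d and 5.87, 6.70, 7.16 and 5.93 CPM with miR-92a-1-5p, and these groups did not overlap. With miR-124-5p it measured 7.48, 6.92, 8.16 and 7.49 CPM, and with Mut.oligo 7.12, 8.58, 8 and 7.62 CPM, both overlapping untreated. The log2 fold change for miR-92a-1-5p was -0.45 (SE 0.103, unadjusted p = 0.000385, adjusted p = 0.419). With the batch fitted it was -0.41 (SE 0.0873, adjusted p = 0.0629). Over the 17 alternatives for this value the adjusted p ranged from 0.0212 to 1 and the log2 fold change from -0.52 to -0.39. Both DESeq2 fits gave an adjusted p below 0.05 with a log2 fold change within the fold limit, and no edgeR fit did.

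Within the 2 batches shared with untreated, Spry1 was lower with miR-92a-1-5p by 0.40 in batch L and 0.37 in batch J on the log2 scale. It was also below the Mut.oligo library in 3 of 3 shared batches and below the miR-124-5p library in 4 of 4. These counts and the tests that follow reuse the miR-92a-1-5p libraries for which Spry1 was singled out. They are therefore not separate observations, and the shares of all genes with these 2 orders were not counted. The test of miR-92a-1-5p against Mut.oligo gave -0.29 (SE 0.103, unadjusted p = 0.0122, adjusted p = 1), and that against miR-124-5p gave -0.23 (SE 0.104, unadjusted p = 0.0389, adjusted p = 1). For miR-124-5p and Mut.oligo against untreated, Spry1 stood at -0.22 (SE 0.102) and -0.16 (SE 0.102), with adjusted p values of 1 and 0.999. At 6 h the value for miR-92a-1-5p had been -0.01 (SE 0.116), and the test of the difference between the time points gave -0.44 (SE 0.154, unadjusted p = 0.00747, adjusted p = 1).

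**Figure D5:**
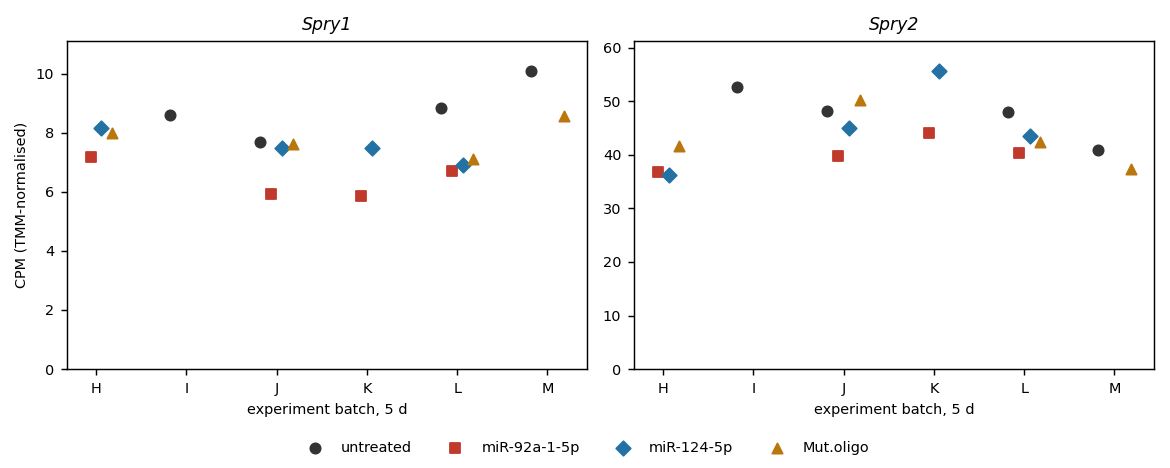
Levels (CPM after TMM scaling, linear axis from 0) of Spry1 and Spry2 in the 16 libraries of 5 d, placed by experiment batch H to M, with symbol and colour giving the group. In each of batches H, J, K and L the lowest library for Spry1 is the one with miR-92a-1-5p, between 5.87 and 7.16 CPM.

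Spry2 measured 48.0, 40.8, 52.7 and 48.2 CPM in untreated neurons at 5 d and 44.0, 40.3, 36.7 and 39.7 CPM with miR-92a-1-5p. The groups overlapped through untreated replicate 2. The log2 fold change was -0.24 (SE 0.116, adjusted p = 1), or -0.30 (SE 0.074, adjusted p = 0.121) with the batch, and the adjusted p over the 17 alternatives ranged from 0.0325 to 1, the lowest from DESeq2 with the batch. The difference was -0.25 and -0.28 in the 2 shared batches.

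Dusp6 measured 23.3, 19.3, 20.7 and 27.2 CPM in untreated neurons, 18.1, 20, 16.1 and 23.0 CPM with miR-92a-1-5p, 17.1, 19.9, 17.9 and 23.9 CPM with miR-124-5p and 19.7, 17.8, 16.5 and 25.5 CPM with Mut.oligo. All groups overlapped, and the highest library of each was the one of batch J. With the batch fitted, the log2 fold changes were -0.21 (SE 0.0646, adjusted p = 0.23), -0.18 (SE 0.0645, adjusted p = 0.808) and -0.17 (SE 0.0587, adjusted p = 1). The value was below untreated in each of the 2, 2 and 3 shared batches, and the adjusted p over the alternatives was at least 0.206, 0.808 and 0.724.

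Dusp4 and the Spred genes had values near 0 at 5 d. For miR-92a-1-5p, Dusp4 stood at -0.05 (interval -0.31 to 0.22), Spred2 at 0.00 (interval -0.26 to 0.25), Spred3 at -0.06 (interval -0.34 to 0.23) and Spred1 at -0.07 (interval -0.23 to 0.09), in the fit of the groups only. For miR-124-5p and Mut.oligo, the 4 genes stood between -0.13 and 0.02. With the batch fitted, all 4 stood on the other side of 0 for miR-92a-1-5p, Dusp4 at 0.06 (interval -0.07 to 0.18), Spred2 at 0.10 (interval -0.13 to 0.34), Spred3 at 0.12 (interval -0.09 to 0.33) and Spred1 at 0.01 (interval -0.17 to 0.18).

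Over the set, the genes below untreated in every shared batch at 5 d were 5 for miR-92a-1-5p (Dusp1, Dusp6, Spry1, Spry2 and Spred1), 5 for miR-124-5p and 2 for Mut.oligo (Dusp6 and Spry1), where the shares of all genes were 28.4%, 29.4% and 14.7%. The number of genes with all 4 libraries below all 4 untreated libraries was 1 for miR-92a-1-5p (Spry1), 0 for miR-124-5p and 0 for Mut.oligo, where 1.61%, 0.998% and 1.29% of all genes had this order.

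Comparisons between the oligoribonucleotides called 0 of the 10 genes at 6 h and 5 d for miR-92a-1-5p against Mut.oligo, miR-124-5p against Mut.oligo and miR-92a-1-5p against miR-124-5p, where 0% of all genes were called (edgeR), and DESeq2 called 0 as well. At an unadjusted p below 0.05 they held 1, 0 and 1 genes of the set at 6 h (Spred1 in both) and 1, 0 and 1 at 5 d (Spry1 in both). The 95% intervals of the 10 genes in these 6 comparisons lay between -0.51 and 0.51 without the batch. In the edgeR fit with the batch, 2, 2 and 1 genes of the set had an unadjusted p below 0.05 at 6 h, beside 526, 822 and 982 of all genes. At 5 d the numbers were 2, 0 and 2 (Spry1 and Spry2 in both), beside 1715, 542 and 1484 of all genes. Spry2 with miR-92a-1-5p then stood at -0.23 against Mut.oligo (adjusted p = 0.471) and at -0.16 against miR-124-5p (adjusted p = 0.595). The tests of whether an effect differed between 5 d and 6 h called 0 of the 10 genes for each oligoribonucleotide, where 0% of all genes were called, with 1, 0 and 0 genes of the set at an unadjusted p below 0.05, and DESeq2 called 0.

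Among the pathway lists and without the batch, 0 genes were called against untreated at 6 h for the 3 oligoribonucleotides (edgeR, with 0 to 4 genes of each list at an unadjusted p below 0.05), and over all genes DESeq2 called 0, 0 and 10. At 5 d, 1 was called, Ccnd1 (cyclin D1) with miR-92a-1-5p, and it belongs to the ERK-responsive list (log2 fold change -0.65, SE 0.0939, adjusted p = 0.0483). Without any 1 of the 4 untreated libraries, or without replicate 2, 3 or 4 of miR-92a-1-5p, 0 genes were called in this comparison. It measured 38.8 ± 1.17 CPM in untreated neurons, 24.7 ± 3.99 CPM with miR-92a-1-5p, 28.7 ± 2.47 CPM with miR-124-5p and 26.3 ± 1.26 CPM with Mut.oligo. For the 3 oligoribonucleotides in that order and with the batch fitted, its log2 fold changes were -0.68 (adjusted p = 0.00261), -0.45 (adjusted p = 0.0836) and -0.52 (adjusted p = 0.0254), of which the first and the last passed both limits. At 6 h with miR-92a-1-5p and the batch fitted, Fos (-0.73, SE 0.115, adjusted p = 0.00767) and Bdnf (-0.98, SE 0.198, adjusted p = 0.0294) passed both limits, with adjusted p values of 0.999 in the fit without it. In the same comparison, Igf1r (0.17, SE 0.0383, adjusted p = 0.0422) and Dusp8 (-0.13, SE 0.0264, adjusted p = 0.0275) passed the adjusted p with the batch but stayed within the fold limit. A low mean level of Bdnf was also seen with Mut.oligo, in libraries partly of other batches. At 6 h Bdnf measured 16.5 ± 6.32 CPM in untreated neurons and 8.29 ± 2.9 CPM with miR-92a-1-5p. With miR-124-5p and Mut.oligo it measured 13.1 ± 7.38 and 8.32 ± 3.49 CPM. Fos measured 11.2 ± 5.94, 6.57 ± 2.35, 9.34 ± 5.9 and 7.56 ± 3.55 CPM in the same order of groups. Dusp14 stood at -0.24 (SE 0.106) with miR-92a-1-5p and -0.38 (SE 0.109) with Mut.oligo at 6 h, with adjusted p values of 0.999 and 0.363. At 5 d with miR-92a-1-5p and the batch fitted, Lrig1 stood at -0.32 (SE 0.0599, adjusted p = 0.0348), Etv4, an ETS factor downstream of FGF, at -0.45 (SE 0.088, adjusted p = 0.0479), and Dusp16 at -0.37 (SE 0.0789, adjusted p = 0.0629).

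The receptors Kdr and Pdgfra had the smallest p values of the growth factor list at 5 d in the fit without the batch. With the batch fitted, Pdgfra, a marker of oligodendrocyte precursors, stood at -1.58 (SE 0.151, adjusted p = 0.000636) for miR-92a-1-5p, -1.53 (SE 0.147, adjusted p = 0.0029) for miR-124-5p and -1.47 (SE 0.134, adjusted p = 0.000821) for Mut.oligo. Without the batch its adjusted p values were 0.912, 1 and 0.999. Kdr, the VEGF receptor, stood at -1.46 (SE 0.118, adjusted p = 0.000192), -1.01 (SE 0.114, adjusted p = 0.00673) and -1.37 (SE 0.106, adjusted p = 0.000243) with the batch, and its adjusted p values without it were 0.198, 1 and 0.204.

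Marker lists also differed in level between the groups. At 6 h, the 6 mural cell and fibroblast markers were all above 0 for Mut.oligo against untreated (median log2 fold change 0.58), with sums of 45.2 to 109 CPM against 19.3 to 68.9 CPM. The 6 microglia markers were also all above 0 (median 0.22), with sums of 12.5 to 19.7 CPM against 13.3 to 19.1 CPM, and 0 genes of either list were called. For miR-124-5p at 6 h, the 6 microglia markers and the 6 markers of dividing cells were all below 0 (medians -0.25 and -0.27), again with 0 called. The part of these cells in the 6 h values of the set was not tested. At 5 d, markers of dividing cells summed to 118 to 125 CPM in untreated neurons, 70.8 to 108 CPM with miR-92a-1-5p, 85.7 to 103 CPM with miR-124-5p and 80.5 to 101 CPM with Mut.oligo. Those of the oligodendrocyte lineage summed to 144 to 173, 81.2 to 134, 107 to 160 and 118 to 128 CPM, and those of mural cells and fibroblasts to 37.5 to 65.1, 23.9 to 40.8, 32.3 to 49.9 and 32.3 to 46.4 CPM, in the same order of groups. Each of these 3 lists had 6 genes, of which 0 were called at 5 d and 5 or 6 had values below 0 in each comparison with untreated. The part of these cells in the values of Spry1, Spry2 and Dusp6 was not tested.

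The 10 genes did not vary as one block. Over the 32 libraries, with the mean of each time point taken out, Pearson correlations of log2 CPM between members ranged from -0.26 (Dusp5 and Spred2) to 0.81 (Spry4 and Spred3). Spred2 and Spred3 correlated at 0.75 and Dusp1 and Dusp6 at 0.71. At 6 h alone, Dusp6 and Spred2 reached 0.95 and Dusp4 and Dusp6 0.91, while at 5 d alone these were 0.32 and 0.39. Spry2 and Spred3 stood at 0.57 at 6 h and -0.65 at 5 d. These libraries share batches, depth and one outlying library, so the correlations are descriptions.

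Among 13652 genes compared in the same way over the 32 libraries, the gene closest to Spry4 was Spred3 itself, and no other gene of the set was among the 3 closest to another. Closest to Dusp1 was Tmem248 (0.86), to Dusp4 Cct6a (0.87), to Spred1 Xiap (0.90), to Spred2 Ids (0.92) and to Spred3 Tfrc (0.85). For Dusp5 it was Srp19 (0.78), with Nptx2, an activity-induced synaptic pentraxin, second at 0.77. For Dusp6 it was Srsf5 (0.77), with the activity-induced transcription factor Npas4 second at 0.75. Spry2 was closest to Cacng5 (0.83) and Spry1 to Mylk (0.65), the lowest of these values.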

How the data were processed

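RNA from 32 cultures was sequenced from stranded mRNA libraries. The authors aligned the reads to GRCm38 (STAR, per the labels), made strand-specific exon counts per gene with featureCounts of Subread, and deposited these counts without normalization. Of the 49671 gene identifiers, 49326 were matched to a symbol. The 10 genes and all lists were chosen with earlier results of these data known. Named genes are the 10, up to 2 per list and comparison with the smallest p, and those called, apart from a result of the pathway lists that is not reported here.

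Genes reaching 5 counts in 3 or more libraries entered edgeR 4.0.16 under R 4.3.3 (TMM, quasi-likelihood test, no covariate, 16 libraries per time point, or 32 for comparisons across time), with Benjamini-Hochberg adjustment over all genes tested. CPM on the log2 scale used a prior count of 2. Fits without a covariate were tested on simulated counts that held no batch differences, so that test does not cover the batch effects of these data. No 2 libraries of a group were identical (48 pairs, chi-square per degree of freedom from 5.78). Alternatives were batch, replicate number, DESeq2 1.42.0, RLE, other filters, no fold limit, 2 groups only, and leaving out libraries. Intervals cover the spread between libraries.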

Additional observations from a re-analysis of the deposited data

Results flagged for a closer look

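In each of the 80 sets of 4 libraries formed by a gene and a group, the highest and lowest library were compared with the others by Dixon's ratio. In 4 sets one library stood beyond Dixon's 95% critical ratio, and chance gives about 1 in 20. Dusp1 in untreated neurons at 6 h was 24.9 CPM in replicate 4, from batch G, with the others at 32 to 32.3 CPM. Spry4 was 12.2 CPM in untreated replicate 3 at 6 h, with the others at 18.5 to 19.6 CPM, and 11.2 CPM in miR-92a-1-5p replicate 1, with the others at 16.7 to 17.6 CPM. Both of these Spry4 libraries are from batch A. Spred3 was 25.7 CPM in Mut.oligo replicate 2 at 5 d, with the others at 22.9 to 23.2 CPM. The causes were not tested.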

How the results depend on the processing

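Of the 16 counts of called genes, 15 were 0, and all 216 values under their alternatives were 0 as well. The count between untreated neurons at 5 d and 6 h was 4, stayed at 4 under 14 alternatives, including each left-out library, and was 7 with no minimum fold change, which adds Spry1, Spry2 and Spred2 by construction. Under the replicate block the counts were 4 for the time comparison and 0 for the others. Replicate numbers followed the experiment batch only in part. Between treated and untreated libraries, the same number never meant the same batch at 6 h. At 5 d it did for some, among them replicate 4 of every group, from batch J. Deviations of treated and untreated libraries with the same number correlated at -0.457 to 0.758, those of the same batch at 0.172 to 0.758. The value of 0.758, for Mut.oligo at 5 d, is the highest of both kinds. The block changed no call among the 10 genes. Over all genes the numbers called did depend on the fit: for miR-92a-1-5p at 5 d against untreated they were 1 without a covariate, 68 with the batch, 3 with the replicate block, 32 with DESeq2 and 118 with DESeq2 and the batch, and at 6 h they were 0, 39, 0, 0 and 26. For Mut.oligo in the same order they were 0, 4, 0, 10 and 7 at 6 h and 0, 9, 0, 3 and 19 at 5 d, and for miR-124-5p 0, 0, 0, 0 and 1 at 6 h and 0, 5, 0, 0 and 17 at 5 d. The time comparison called 6835 genes, and 11167 with no minimum fold and 4544 with at least 10 counts in every library. The causes were not tested. Of 26 log2 fold changes of single genes of the set followed through 422 alternatives, 0 changed sign. Those followed were all 10 values of the time comparison, and the values against untreated with an unadjusted p below 0.05 without or with the batch. For the values against untreated, this choice favoured stable signs, so their 0 is no measure of the whole set. Others, not among them, did with the batch fitted: for miR-92a-1-5p at 5 d the values below 0 went from 10 to 5 (Dusp4, Spry4, Spred1, Spred2 and Spred3 turned), Dusp5 for Mut.oligo at 5 d went from -0.12 to 0.02, and Spred3 for Mut.oligo at 6 h from 0.02 to -0.13. Values of Dusp4, Spred2 and Spred3 for miR-124-5p and of Dusp4 and Spred2 for Mut.oligo at 5 d also turned. With 4 libraries per group, a difference whose 95% interval includes 0 cannot be told from 0, nor from the other values in that interval. Against untreated, the standard errors of Spry4 at 6 h (0.189 to 0.192) and of Dusp5 at 5 d (0.174 to 0.175) exceeded those of the other 9 genes. Time and batch cannot be told apart.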
